A study of Mus musculus with 8 samples.

Results

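The activity-regulated immediate early genes are genes that neurons switch on within minutes of synaptic input, and 32 of them were followed here in the mouse dentate gyrus. They were chosen by gene symbol for their known induction by activity, by a rule that used no measured value but was drawn up with earlier results of these data known, from 26894 gene symbols on the array, of which 19922 had a probe kept for testing. All 32 had a kept probe (47 of their 52 probes in all), and for each gene the brightest kept probe, which was well above background on all 8 arrays for all 32, stands for the gene. Their RNA was measured on 8 Agilent arrays of the 1-colour kind, on which a sample has no partner and a spot yields 1 brightness. There were 4 groups of 2 arrays, from male C57BL/6 mice aged 8 to 9 weeks, for which the labels name no stimulus. Derlin-1 control mice were homozygous for a floxed Derl1 gene, and Derlin-2 control mice for a floxed Derl2 gene. The KO mice of each line carried the same floxed gene and, in addition, a Cre recombinase transgene driven by the nestin promoter, which is active in neural stem and progenitor cells and so deletes the gene in the neurons and macroglia that arise from them. Groups were read from the sample titles, since the labels' genotype entry for KO mice gives the floxed alleles without Cre. Both Derlins sit in the membrane of the endoplasmic reticulum and help to clear misfolded proteins. The question addressed was whether the resting level of the immediate early genes differed between KO and control mice of each line.

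As background, synaptic activity lets calcium into a neuron, and calcium-dependent and mitogen-activated kinases then phosphorylate transcription factors that already sit on DNA, chiefly CREB at the cAMP response element (CRE) and the serum response factor with its partners at the CArG box. Transcription of the immediate early genes follows without new protein synthesis, and their mRNAs are short-lived, so that their level tells of the recent activity of the tissue. The first products are themselves transcription factors of the FOS, JUN, EGR and NR4A families and NPAS4, while others act at the synapse, are secreted, or turn the kinase signal off again. In the dentate gyrus, mature granule neurons fire sparsely, and seizures or exploration of a new place switch these genes on.

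The CRE and the CArG box can be seen in the promoters of some members, which are shown here as the sequence context of the group. Promoter windows from RefSeq (build GRCm38.p6, 250 bases before to 50 after the start site) were matched by symbol for 25 of the 32 members, with 36 windows in all. Arc, Dusp4, Egr1, Egr3, Ier2, Nptx2 and Sik1 had no window in the table used. The full CRE, TGACGTCA, lay in the windows of Btg2, Pcsk1 and Dusp1, and 1.79% of all 32851 promoter windows held it. Its core, TGACG on either strand, which is also part of every full CRE, lay in 20 of the 36 member windows and in a window of 18 of the 25 genes, beside 20.8% of all windows. The CArG box, CC and GG with 6 bases of A or T between them, was found for Egr2 and Dusp5 (1.63% of all windows). An EGR site, GCGNGGGCG on either strand, lay in windows of 8 members (5.55% of all windows), and the AP-1 site, TGANTCA, in a window of Bdnf alone (7.81%). A TATA box, TATAAA on either strand, lay in windows of 6 members (13.6%), and the NR4A site, AAAGGTCA on either strand, in no window of a member (1.51%). A match is a description of these letters and not a measured binding site.

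Stretches from 5 members of different families follow, each read 5′ to 3′ along the gene, with the motif in capitals. Dusp1 (chr17:26508600-26508671, minus strand) has a CRE core and, at position -143 from the start site, a full CRE. Pcsk1 (chr13:75089771-75089794, plus strand) and Btg2 (chr1:134079306-134079329, minus strand) have a full CRE at -78 and -166. Egr2 (chr10:67537486-67537511, plus strand) has a CArG box at -72 of its start site in that window. Nr4a1, chosen after its values were seen, has 4 CRE cores in the opposite orientation, which read CGTCA: 2 in the first stretch (chr15:101266611-101266639, plus strand) and 1 each in the second (chr15:101266769-101266789) and the last (chr15:101266798-101266818).
Dusp1: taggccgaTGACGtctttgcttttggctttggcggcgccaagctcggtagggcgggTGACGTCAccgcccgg
Pcsk1: ggtagatcTGACGTCAagagatgg
Btg2: cccaataaTGACGTCAgtgagcga
Egr2: gatcttctCCTTTTTTGGaaagtctc
Nr4a1, first: tgCGTCAatggaaccccgcgtgCGTCAcg
Nr4a1, second: gccgtgtgCGTCAgtggcgcc
Nr4a1, last: tctccatgCGTCAcggagcgc

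**Figure D1:**
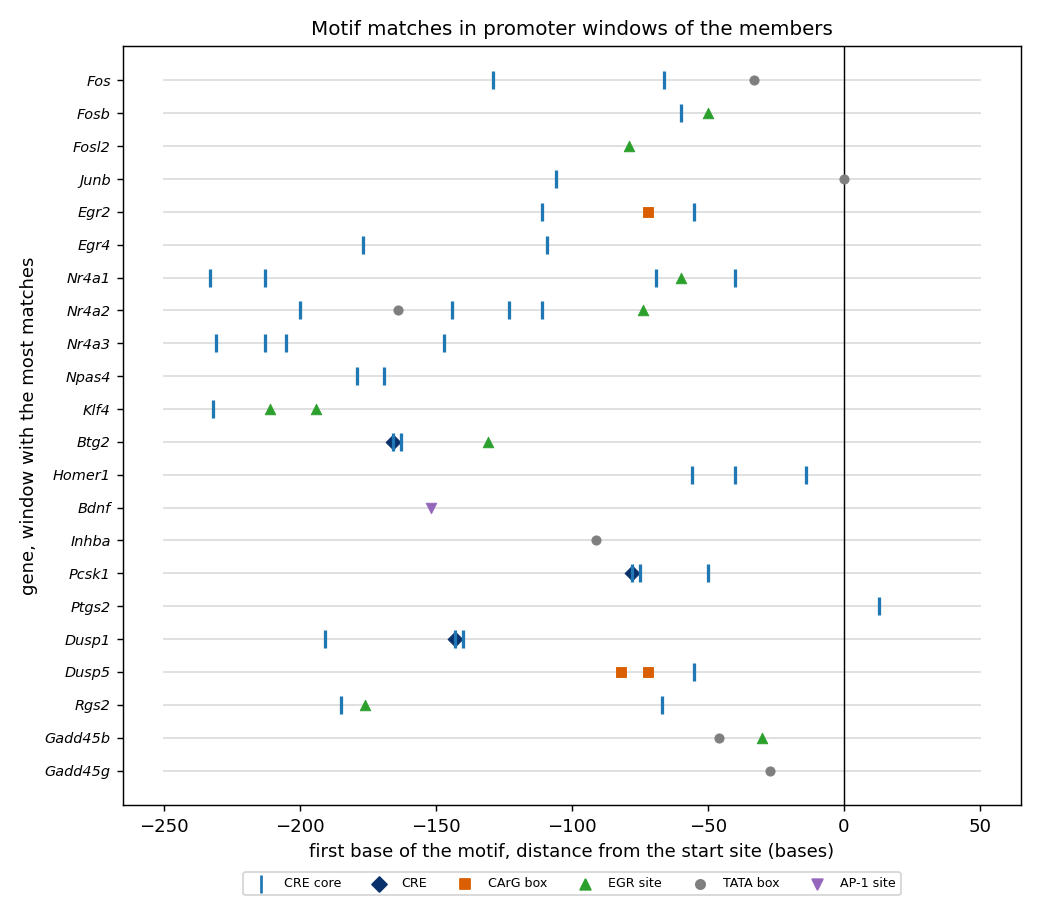
Motif matches in the promoter windows of the 22 members with a match shown, one row per gene; the x axis gives the distance of the first base of each motif from the start site in bases, and for a gene with several windows the one with the most matches is drawn. CRE cores (blue bars) stand in most rows, the 3 full CREs (diamonds) in Btg2, Pcsk1 and Dusp1, and the CArG boxes (squares) in Egr2 and Dusp5.

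Over the whole group, the values lay higher in Derlin-1 KO than in Derlin-1 control for most members, by small amounts, and no single member passed the test. For Derlin-1, 26 of the 32 members were higher in KO and 6 lower, with a median log2 difference of 0.20, beside 46.1% of all genes higher and a median of -0.01. Of the 11 members with several kept probes, Fosl2, Junb, Nr4a3, Inhba, Dusp4 and Dusp5 had probes of opposite sign in this line. Both Derlin-1 KO arrays read above both control arrays for 17 members, where 17.2% of all genes did so, and both below for 3 members, where 16.9% did so. For Derlin-2, 21 members were higher in KO and 11 lower, with a median difference of 0.05, beside 54.3% of all genes higher and a median of 0.02. There, both KO arrays lay above both controls for 7 members (19.2% of all genes) and below for 4 (13.6% of all genes). The members answer to common signals and were read on the same arrays, so that they are not independent readings of the tissue.

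None of the 32 members had an adjusted p under 0.05 in limma (Benjamini-Hochberg over all probes kept) in either line, in the difference of the lines or in their mean. The lowest adjusted p of a member was 0.9997 for Derlin-1, 0.956 for Derlin-2, 0.697 for the Derlin-1 effect minus the Derlin-2 effect and 0.912 for the mean of both effects. Among all probes, 0% passed for Derlin-1, 0.0452% for Derlin-2, 0.00754% for the difference and 0.0126% for the mean. At an unadjusted p under 0.05 in limma there were 4 members in the Derlin-1 line (Fosl2, Egr2, Nr4a1 and Nr4a2, all higher in KO), where 4.24% of all genes had one, and 0 in the Derlin-2 line, where 4.76% had one. For the difference between the lines there were 3 (Fosl2, Nr4a1 and Nr4a2; 4.56% of all genes), and for the mean of both effects 3 (Egr2, Nr4a2 and Bdnf; 4.54% of all genes). The difference of effects was positive for 23 of the 32 members (median 0.07, all genes -0.03), and the mean effect for 29 (median 0.10, all genes 0.01).

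The size of the Derlin-1 shift depended on single arrays. Without Derlin-1 control replicate 1 the median was 0.13 and without Derlin-1 KO replicate 1 also 0.13, while without Derlin-1 KO replicate 2 it was 0.25; the number of members higher in KO stayed between 24 and 26. The Derlin-2 median went from -0.03 without control replicate 1 and -0.01 without KO replicate 2 to 0.09 without KO replicate 1 and 0.11 without control replicate 2, and the number higher in KO from 14 without KO replicate 2 to 26 without control replicate 2. Measured against the mean of its own controls, the median over the members was 0.25 on Derlin-1 KO replicate 1 and 0.13 on replicate 2. The same measure was -0.01 on Derlin-2 KO replicate 1 and 0.09 on replicate 2.

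**Figure D2:**
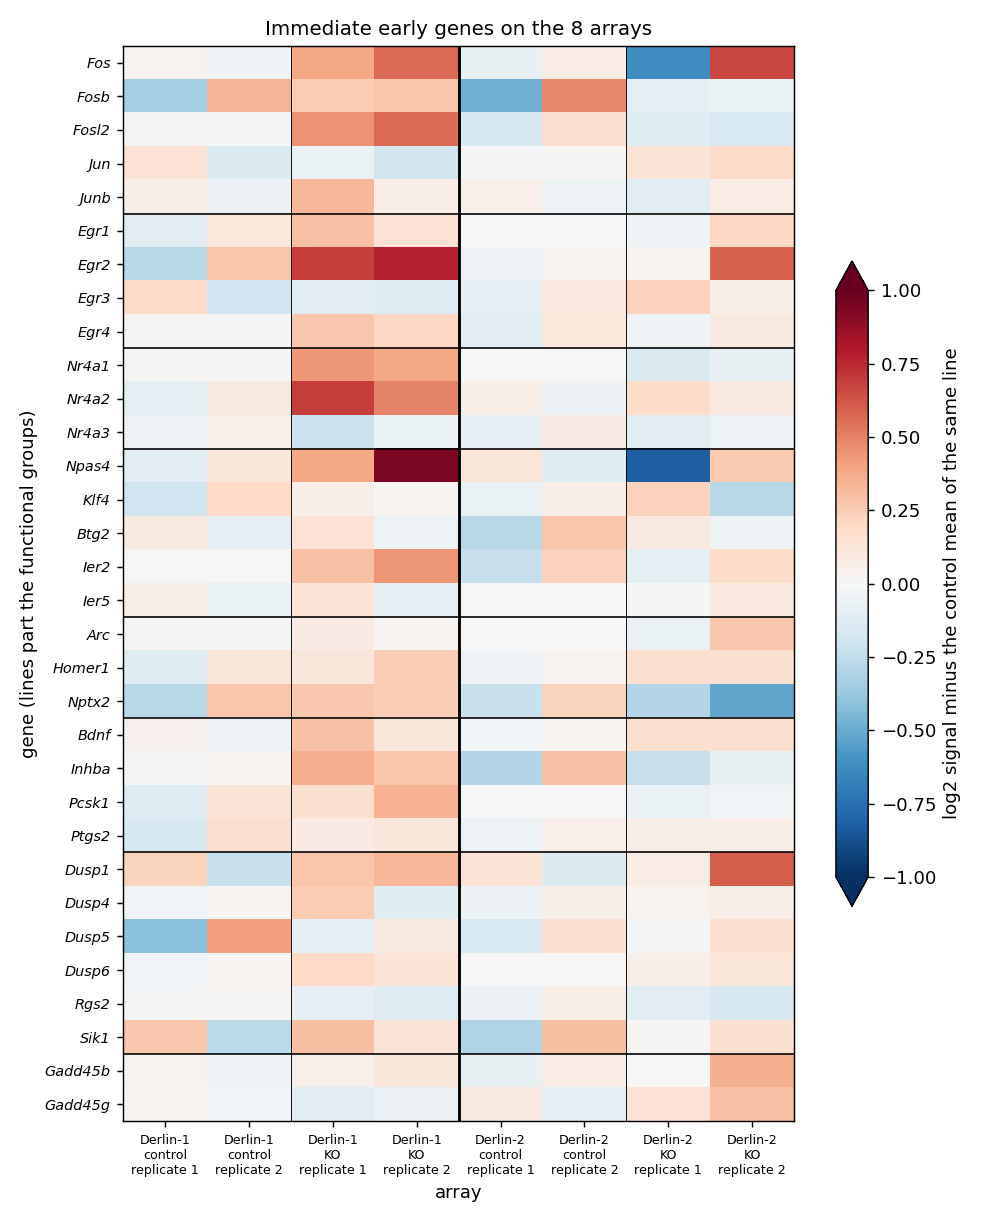
Log2 signal of the 32 members (rows, in functional groups) on the 8 arrays (columns) minus the mean of the 2 control arrays of the same line; red is higher, blue is lower, and the scale ends at -1 and 1. Both Derlin-1 KO columns are mostly red, with 26 and 24 members above the control mean, while the Derlin-2 KO columns differ from each other, with 14 and 22.

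The facts of the series that touch these values are as follows. Slide and line cannot be told apart, since arrays of 1 line shared a slide, and on each slide the controls held the first positions and the KO samples the last, so that position and genotype cannot be told apart either. An array had between 38247 and 40089 of its 56605 probes well above background, and no spot was saturated. Over the brightest kept probe of each gene, arrays correlated at 0.990 to 0.996 within a group. Between a KO and a control array of the same line the correlation was 0.991 to 0.995. Nothing in the labels says that the arrays of a group came from separate mice, so the p-values may measure technical spread only. With 2 arrays on each side, the smallest two-sided p of an exact permutation test is 0.333. As a check of the labels, the brightest Derl2 probe was lower in Derlin-2 KO, with a log2 difference of -0.64 (SE 0.10), whereas the brightest Derl1 probe differed by -0.19 (SE 0.10) and a dimmer one by 0.46 (SE 0.12) in the Derlin-1 line, which does not settle the Derlin-1 labels. All 9 granule neuron markers of the fixed list were well above background in every group, as were all 9 markers of CA pyramidal neurons, which lie next to the dentate gyrus. In bulk tissue, fewer cells of a type and less RNA per cell cannot be told apart.

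Among the AP-1 factors, which pair as FOS and JUN proteins to bind DNA, 4 of 5 members were higher in Derlin-1 KO and 2 of 5 in Derlin-2 KO. Fos, the classical marker of recently active neurons, had log2 signals of 8.85 and 8.79 on the Derlin-1 control arrays and 9.21 and 9.38 on the KO arrays. Its Derlin-2 signals were 8.48 and 8.63 in control and 7.93 and 9.22 in KO. Thus the Derlin-1 groups did not overlap, whereas the 2 Derlin-2 KO arrays stood on either side of their controls. KO minus control was 0.48 (SE 0.39, 1.39-fold) for Derlin-1 and 0.02 (SE 0.39) for Derlin-2 on the log2 scale, and both carry the same error, which all 4 pairs of arrays share.

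Fosb, whose splice product accumulates on repeated activity, read 7.70 and 8.39 in Derlin-1 control and 8.30 and 8.32 in Derlin-1 KO. It read 8.05 and 9.00 in Derlin-2 control and 8.43 and 8.46 in Derlin-2 KO. In both lines the KO arrays lay close together and the control arrays apart, and the groups overlapped. Fosl2, a longer-lived FOS relative, read 10.33 and 10.31 in Derlin-1 control and 10.77 and 10.89 in Derlin-1 KO. The Derlin-2 values were 10.66 and 10.98 in control and 10.70 and 10.67 in KO. The Derlin-1 KO arrays were thus above their controls by 0.51 (SE 0.13; limma, unadjusted p = 0.00789, adjusted p = 0.9997), but at the level of the Derlin-2 groups.

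A second, dimmer Fosl2 probe went the other way in both lines. Its mean was 7.09 (SD 0.11, n = 2) in Derlin-1 control against 6.88 (SD 0.0080, n = 2) in KO, and 7.39 (SD 0.11, n = 2) in Derlin-2 control against 7.92 (SD 0.023, n = 2) in KO. Its differences were -0.20 (SE 0.11) and 0.52 (SE 0.11; limma, unadjusted p = 0.00282, adjusted p = 0.480), so no direction of Fosl2 held over its 2 probes.

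Junb, which restrains JUN and is strongly induced in granule neurons, read 12.97 and 12.85 in Derlin-1 control and 13.24 and 12.97 in Derlin-1 KO, the lower KO array being just above the higher control. Junb read 12.89 and 12.78 in Derlin-2 control and 12.73 and 12.91 in KO, and the groups overlapped. Its other 2 probes were dim, with Derlin-1 differences of -0.13 and -0.48 against 0.20 for the brightest. Jun, the partner of FOS, had differences of -0.13 (SE 0.13) for Derlin-1 and 0.16 (SE 0.13) for Derlin-2.

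**Figure D3:**
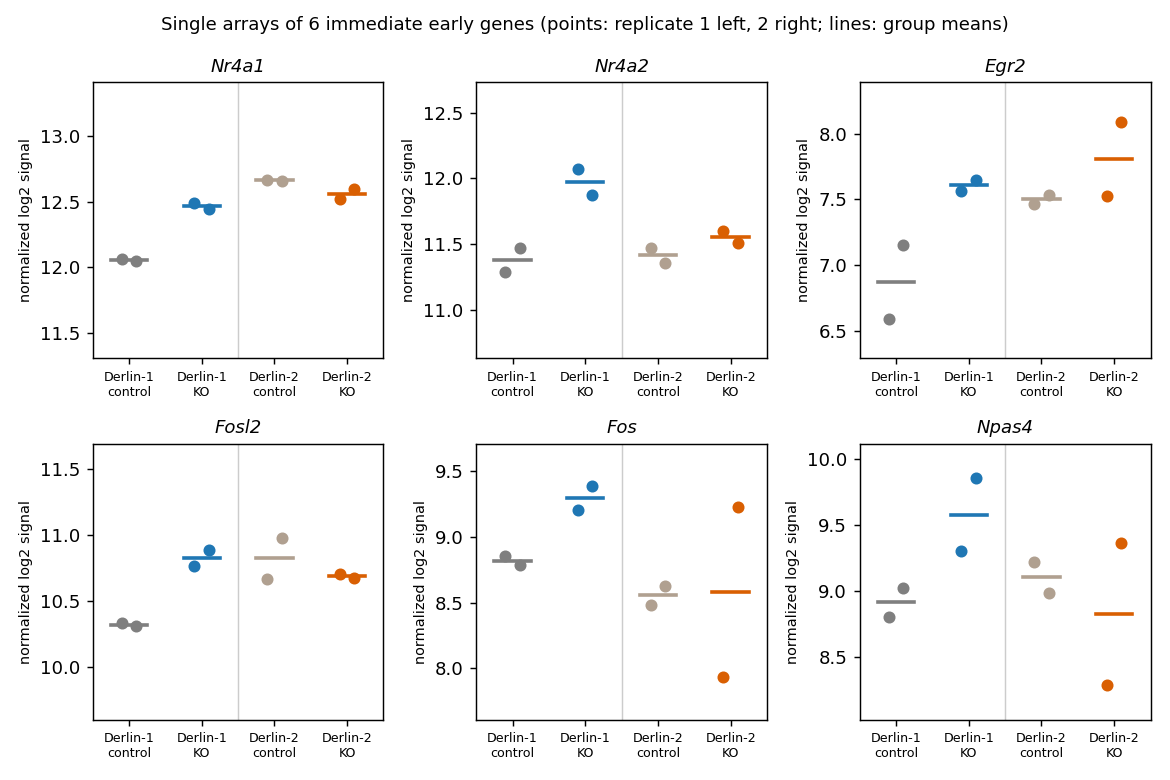
Normalized log2 signal of Nr4a1, Nr4a2, Egr2, Fosl2, Fos and Npas4 on each array (points; replicate 1 left, replicate 2 right) with group means (lines); all panels span the same log2 range, and levels of different genes are not comparable. In each panel both Derlin-1 KO points lie above both Derlin-1 control points; for Fos and Npas4 the Derlin-2 KO points lie on either side of their controls.

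Of the EGR factors, zinc finger proteins that bind GC-rich sites, 3 of 4 were higher in Derlin-1 KO and 4 of 4 in Derlin-2 KO. Egr1, linked to long-term potentiation, read 11.70 and 11.91 in Derlin-1 control and 12.10 and 11.95 in KO, so that the groups came within 0.04 of each other without overlap. For Derlin-2, Egr1 read 12.16 and 12.15 in the control group and 12.11 and 12.36 in KO, on either side of the controls. Egr2, the gene with the CArG box shown above, read 6.59 and 7.15 in Derlin-1 control and 7.57 and 7.64 in KO, and in the Derlin-2 line 7.47 and 7.54 in controls and 7.53 and 8.09 in KO. With a difference of 0.73 (SE 0.25, 1.66-fold; limma, unadjusted p = 0.0245, adjusted p = 0.9997) it had the largest Derlin-1 value of the 32 members, while in Derlin-2 KO only replicate 2 stood apart and the difference was 0.31 (SE 0.25). The mean of both effects for Egr2 was 0.52 (SE 0.17; limma, unadjusted p = 0.0242, adjusted p = 1).

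Egr3, which like Egr1 is induced by synaptic activity, read 12.62 and 12.23 in Derlin-1 control and 12.31 and 12.29 in KO. It read 12.07 and 12.27 in Derlin-2 control and 12.41 and 12.24 in KO. Neither line separated its groups with this probe. The second, dimmer Egr3 probe had the same signs. Its Derlin-2 KO arrays (10.59 and 10.65) lay above both controls (10.40 and 10.45), with a difference of 0.20 (SE 0.15). Egr4 read 11.50 and 11.47 in Derlin-1 control and 11.75 and 11.69 in KO, without overlap, and 11.68 and 11.88 in Derlin-2 control against 11.74 and 11.87 in KO, fully within the controls. The Egr4 differences were 0.24 (SE 0.11) for Derlin-1 and 0.03 (SE 0.11) for Derlin-2.

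The NR4A receptors, orphan nuclear receptors that act as transcription factors, held the 2 members with the lowest p-values in the Derlin-1 line. Nr4a1, the gene with the CRE cores printed above, read 12.07 and 12.05 in Derlin-1 control and 12.49 and 12.44 in KO, and in the Derlin-2 line 12.67 and 12.66 in controls and 12.52 and 12.59 in KO. The duplicates lay closer together than for any other member (residual SD 0.031), and KO stood above control in the Derlin-1 line and below it in the Derlin-2 line. The difference was 0.41 (SE 0.09, 1.33-fold; limma, unadjusted p = 0.00399, adjusted p = 0.9997) for Derlin-1 and -0.11 (SE 0.09) for Derlin-2. The Derlin-1 effect exceeded the Derlin-2 effect by 0.52 (SE 0.13; limma, unadjusted p = 0.00683, adjusted p = 0.697). The Derlin-1 control arrays held the lowest Nr4a1 values of all 4 groups, and the Derlin-1 KO arrays were still below both Derlin-2 groups, which lay on the other slide.

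Nr4a2, which is also needed by dopamine neurons, read 11.29 and 11.47 in Derlin-1 control and 12.07 and 11.87 in KO. The Derlin-2 values were 11.47 and 11.36 in control and 11.60 and 11.51 in KO. Derlin-1 KO therefore stood above all 6 other arrays. The difference was 0.59 (SE 0.12, 1.51-fold; limma, unadjusted p = 0.00303, adjusted p = 0.9997), and a second Nr4a2 probe gave 0.59 (SE 0.13) as well. For Derlin-2 the 2 probes gave 0.14 and -0.05. The mean of both effects was 0.37 (SE 0.09; limma, unadjusted p = 0.00589, adjusted p = 0.912), and the difference between the lines 0.46 (SE 0.18; limma, unadjusted p = 0.0410, adjusted p = 0.843). Nr4a3, the remaining receptor, read 7.45 and 7.54 in Derlin-1 control and 7.28 and 7.43 in KO, and 7.85 and 8.01 in Derlin-2 control against 7.82 and 7.88 in KO. It was slightly lower in KO, with differences of -0.14 (SE 0.11) and -0.08 (SE 0.11), but its 2 dimmer probes gave 0.30 and 0.19 for Derlin-1 and -0.44 and 0.57 for Derlin-2.

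Of the other nuclear regulators, all 5 had a positive difference for Derlin-1 and 3 of 5 for Derlin-2. Npas4, a neuron-specific factor that answers to calcium alone and sets inhibitory synapses, read 8.80 and 9.02 in Derlin-1 control and 9.30 and 9.86 in KO. Its Derlin-2 values were 9.22 and 8.98 in controls and 8.28 and 9.36 in KO. Like Fos, it was higher on both Derlin-1 KO arrays and split in Derlin-2 KO. The difference was 0.67 (SE 0.37, 1.59-fold; limma, unadjusted p = 0.122, adjusted p = 0.9997) for Derlin-1 and -0.28 (SE 0.37) for Derlin-2. Ier2, an early response gene of many cell types, was higher on both Derlin-1 KO arrays, by 0.37 (SE 0.18), with a Derlin-2 difference of 0.04 (SE 0.18). Klf4, Btg2 and Ier5 had differences of 0.02 to 0.05 for Derlin-1 and -0.02 to 0.04 for Derlin-2.

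The synaptic effectors included Arc, whose mRNA travels to active dendrites and whose protein draws AMPA receptors from the synapse. Arc read 12.03 and 12.01 in Derlin-1 control and 12.10 and 12.04 in KO, and 11.97 and 11.99 in Derlin-2 control against 11.91 and 12.25 in KO. Its differences, 0.05 (SE 0.13) and 0.10 (SE 0.13), were below the members' median for Derlin-1 and rested on 1 array for Derlin-2.

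Homer1 encodes a long scaffold of the postsynaptic density and a short, activity-induced form that competes with it. The brightest probe, annotated to transcript variant L, read 11.88 and 12.11 in Derlin-1 control and 12.11 and 12.24 in KO, and 12.15 and 12.22 in Derlin-2 control against 12.35 and 12.34 in KO. The probe annotated to the short transcript variant S read 9.06 and 9.24 in Derlin-1 control and 9.33 and 9.32 in KO, and 8.95 and 9.09 in Derlin-2 control against 9.33 and 9.42 in KO. For variant S, both KO arrays stood above both controls in each line. Its differences were 0.17 (SE 0.11) for Derlin-1 and 0.36 (SE 0.11; limma, unadjusted p = 0.0192, adjusted p = 0.765) for Derlin-2, with a mean of 0.27 (SE 0.08; limma, unadjusted p = 0.0155, adjusted p = 1). All 4 Homer1 probes had positive differences in both lines, from 0.11 to 0.36. Nptx2, a secreted pentraxin that gathers AMPA receptors on interneurons, read 7.48 and 8.03 in Derlin-1 control and 8.03 and 8.00 in KO, and 8.23 and 8.68 in Derlin-2 control against 8.16 and 7.94 in KO. It had the lowest Derlin-2 value of the 32 members, -0.41 (SE 0.23), and a second probe gave -0.32 (SE 0.20).

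Secreted factors and their processing enzymes were higher in Derlin-1 KO for all 4 members. Bdnf, the neurotrophin that supports plasticity, read 11.76 and 11.67 in Derlin-1 control and 12.01 and 11.83 in KO, and 11.40 and 11.45 in Derlin-2 control against 11.59 and 11.59 in KO. Both KO arrays stood above both controls in each line, and the differences were 0.21 (SE 0.11) and 0.16 (SE 0.11), with a mean effect of 0.19 (SE 0.07, 1.14-fold; limma, unadjusted p = 0.0476, adjusted p = 1). Inhba, a subunit of activin, had differences of 0.32 (SE 0.20) for Derlin-1 and -0.16 (SE 0.20) for Derlin-2, though its second probe gave -0.05 for Derlin-1. Pcsk1, the prohormone convertase with a full CRE, differed by 0.26 (SE 0.13) and -0.05 (SE 0.13), and Ptgs2, the inducible cyclooxygenase, by 0.10 (SE 0.13) and 0.06 (SE 0.13).

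The phosphatases and signalling regulators end the kinase signal. Dusp1, a phosphatase of MAP kinases that also holds a full CRE, read 10.02 and 9.56 in Derlin-1 control and 10.07 and 10.12 in KO, and 9.86 and 9.59 in Derlin-2 control against 9.80 and 10.33 in KO. The differences of 0.31 (SE 0.23) and 0.34 (SE 0.23) were near the spread of the duplicates, and the Derlin-2 groups overlapped. Dusp6, a phosphatase of the same family, was higher on both KO arrays of each line, by 0.16 (SE 0.09) and 0.09 (SE 0.09). Rgs2, which quenches G protein signals, was lower on both KO arrays of each line, with differences of -0.11 (SE 0.10) and -0.14 (SE 0.10). Dusp4, Dusp5 and the kinase gene Sik1 had differences of -0.0046 to 0.21 for Derlin-1 and 0.05 to 0.08 for Derlin-2. Dimmer probes gave -0.09 for Dusp4 and 0.05 for Dusp5 in the Derlin-1 line, each of opposite sign to the brightest. The brightest Dusp4 probe also carries a description that names a ribosomal protein. Of the growth arrest genes, Gadd45b, linked to DNA demethylation in active granule neurons, differed by 0.08 (SE 0.14) and 0.17 (SE 0.14), and Gadd45g by -0.08 (SE 0.11) and 0.22 (SE 0.11).

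**Figure D4:**
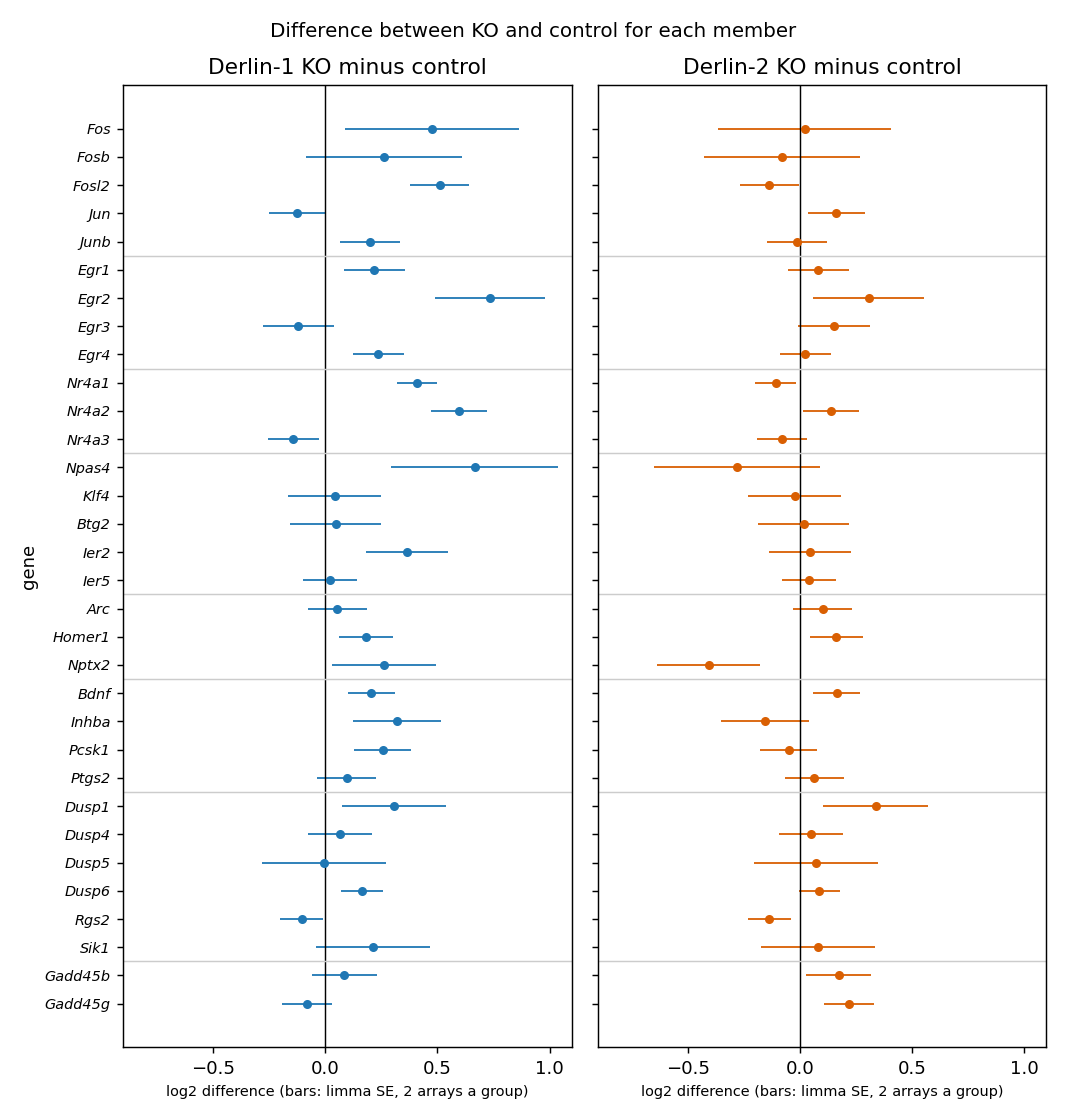
Log2 difference between KO and control for each of the 32 members (points; bars are limma's standard errors, 2 arrays a group) in the Derlin-1 line (left) and the Derlin-2 line (right), with grey lines between functional groups. In the Derlin-1 line 26 points lie right of 0, up to 0.73 for Egr2; in the Derlin-2 line they lie between -0.41 (Nptx2) and 0.34 (Dusp1).

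The spread between duplicates was uneven over the members and bore on every comparison above. The residual SD over the 4 groups ranged from 0.031 for Nr4a1 to 0.46 for Fos, with Npas4 (0.44) and Fosb (0.42) next, and its median was 0.13, beside 0.11 for the 14164 genes at least as bright as the dimmest member. In Derlin-2 KO, replicate 2 read above replicate 1 by 1.29 for Fos, 1.08 for Npas4, 0.56 for Egr2, 0.53 for Dusp1 and 0.34 for Arc. In that group 23 of the 32 members were higher on replicate 2, where 47.0% of all genes were. In Derlin-2 control 25 of 32 were higher on replicate 2, where 51.6% of all genes were, Fosb by 0.95. For the Derlin-1 line, 16 of 32 were higher on replicate 2 in control and 14 of 32 in KO. The median absolute difference between duplicates over the members was 0.162 in Derlin-1 control, 0.116 in Derlin-1 KO, 0.139 in Derlin-2 control and 0.144 in Derlin-2 KO. Over the members, Derlin-1 control thus had the widest pair. Over all genes the values were 0.174, 0.107, 0.196 and 0.110 in the same order, with Derlin-2 control the widest. Dusp5 (0.82), Fosb (0.69), Egr2 (0.56), Nptx2 (0.55) and Sik1 (-0.54) differed by more than 0.5 between the Derlin-1 control arrays, where 13.0% of all genes did. In Derlin-1 KO only Npas4 of the 32 members did so (6.34% of all genes). In Derlin-2 control 4 members did so (17.4% of all genes), and in Derlin-2 KO 5 (7.41% of all genes).

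**Figure D5:**
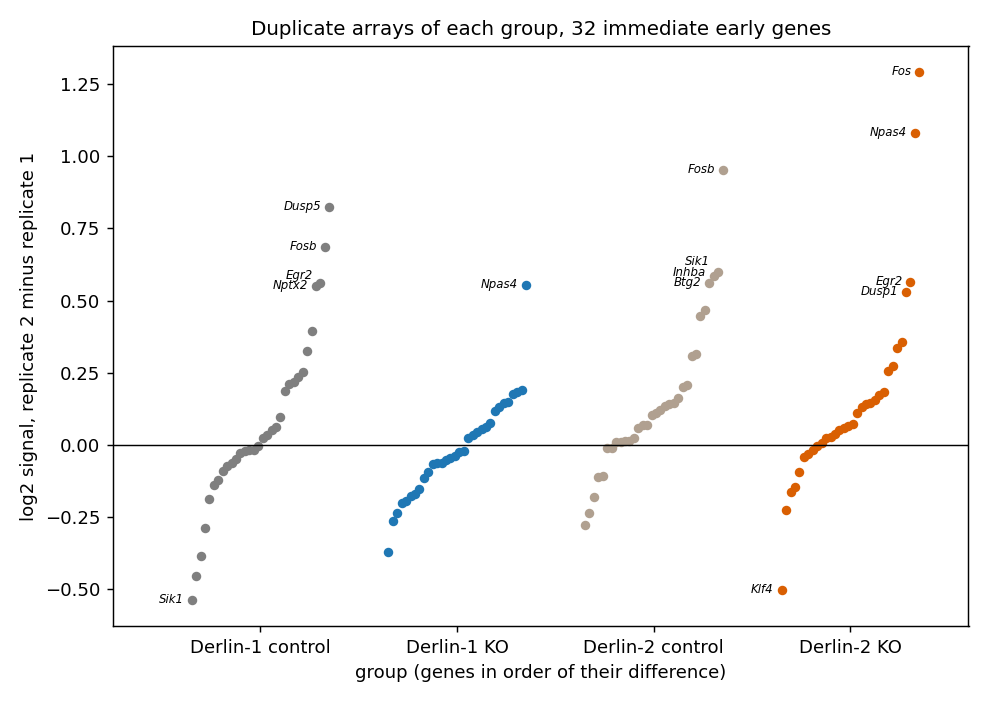
Log2 difference between the duplicate arrays (replicate 2 minus replicate 1) of each group for the 32 members, sorted within each group; genes with a difference over 0.5 are named. Fos (1.29) and Npas4 (1.08) in Derlin-2 KO and Fosb (0.95) in Derlin-2 control have the largest differences.

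The controls of the lines also differed. The members were lower in Derlin-1 control than in Derlin-2 control for 20 of 32 genes, with a median of -0.16, while the median of all genes was 0.04 in the other direction. These groups differ in the floxed gene and in the slide, which cannot be told apart. Summed signals of some marker lists differed too. Granule neuron markers summed to 64178 to 81753 in Derlin-1 control and 51489 to 52175 in Derlin-2 control. The sums were 34373 to 40128 and 45588 to 45922 for CA pyramidal markers, and 85466 to 93694 and 108700 to 121360 for interneuron markers. The sums of microglia and oligodendrocyte markers overlapped. Sst, the brightest interneuron marker, weighed most in the interneuron sums, with a mean log2 signal of 15.45 in Derlin-1 control and 16.09 in Derlin-2 control. The part of the marker lists in the members' difference was not tested. Of the 4 members with an unadjusted p under 0.05 in limma for Derlin-1, Nr4a1, Fosl2 and Egr2 were in Derlin-1 KO within or below the range of the Derlin-2 arrays. Nr4a2 went the other way, with 12.07 and 11.87 in Derlin-1 KO above all Derlin-2 arrays (11.36 to 11.60).

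Of a further list of 42 activity-regulated genes, 41 were measured, and for each line 24 were higher and 17 lower in KO (median 0.05 for both). This median was below that of the members for Derlin-1 and close to it for Derlin-2. Both KO arrays lay above both controls for 16 of the 41 in the Derlin-1 line and below for 6, where 17.2% and 16.9% of all genes did so. For Derlin-2 these counts were 14 and 3, beside 19.2% and 13.6% of all genes. None passed an adjusted p under 0.05 in limma. At an unadjusted p under 0.05 there were 2 of the 41 in each line. This was near the share of all genes, 4.24% for Derlin-1 and 4.76% for Derlin-2. In the Derlin-1 line the 2 genes were Atf3, a stress- and activity-induced factor, and Csrnp1, a nuclear protein. Atf3 read 6.00 and 5.69 in control and 6.49 and 6.32 in KO (difference 0.57, SE 0.16). Csrnp1 read 9.90 and 10.04 in control and 10.26 and 10.31 in KO (difference 0.32, SE 0.13). Both genes also had both Derlin-2 KO arrays above both Derlin-2 controls, with differences of 0.26 (SE 0.16) for Atf3 and 0.23 (SE 0.13) for Csrnp1. The Derlin-2 genes were Spry4, a brake on growth factor signals (7.93 and 8.04 in control, 8.30 and 8.28 in KO; difference 0.31, SE 0.09), and Baz1a, a chromatin protein. Baz1a was well above background on both Derlin-2 KO arrays, on neither Derlin-2 control array and on 1 array of each Derlin-1 group. Its probe was therefore kept only through the Derlin-2 KO group, where it was high. The bound of at least 1.85-fold higher in KO (limma, adjusted p = 0.538) thus describes these arrays and is no support for a rise.

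The genes upstream of the immediate early genes, 33 kinases, channels, calmodulin and transcription factors, were counted in the same way. For Derlin-1, 13 were higher and 20 lower in KO (median -0.04), and for Derlin-2, 18 and 15 (median 0.01). None passed an adjusted p under 0.05 in limma. At an unadjusted p under 0.05 there were 2 of the 33 for Derlin-1 and 1 for Derlin-2, beside 4.24% and 4.76% of all genes. Rps6ka5, which encodes a kinase that phosphorylates CREB and histone H3, read higher in Derlin-1 KO (difference 0.63, SE 0.20). Grin1, the obligatory subunit of the NMDA receptor, was lower in Derlin-2 KO (difference -0.35, SE 0.10; limma, adjusted p = 0.685).

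The levels of marker lists in the same groups follow, and their part in the members' differences was not tested. The summed signals of KO and control stood apart for some lists and overlapped for others. Comparing Derlin-1 KO with control, all 7 microglia markers were lower in KO (median -0.12; summed signals of 37572 to 37957 in control and 33176 to 34833 in KO), as were all 4 measured blood genes (median -0.48; 52704 to 115430 in control and 54542 to 60068 in KO). GABAergic interneuron markers were higher for 5 of 6, with summed signals of 85466 to 93694 in control and 101210 to 111950 in KO, and heat shock genes for 4 of 5 (37515 to 39301 in control, 37649 to 38952 in KO). Signals were summed on the linear scale, so that Sst, the brightest interneuron marker, weighed most in the interneuron sums. Sst read 15.50 and 15.40 in control and 15.73 and 15.94 in KO (difference 0.38, SE 0.11, limma adjusted p = 0.9997). Granule neuron markers were higher for 4 of 9 (median -0.04; 64178 to 81753 in control and 58766 to 71589 in KO). Among the 5 lower markers, Plk5 and C1ql2 had both KO arrays below both controls, where 16.9% of all genes did so. These were also the 2 of the 9 markers with an unadjusted p under 0.05 in limma, beside 4.24% of all genes. Plk5 read 13.75 and 13.05 in control and 12.63 and 12.17 in KO (limma, unadjusted p = 0.0189, adjusted p = 0.9997). C1ql2 read 10.69 and 10.06 in control and 9.93 and 9.76 in KO (limma, unadjusted p = 0.0462, adjusted p = 0.9997). None of the 4 higher markers stood apart in the other direction. Comparing Derlin-2 KO with control, all 8 glucocorticoid target genes, which respond to stress hormone, were lower in KO (median -0.31; summed signals of 32936 to 41752 in control and 31164 to 32014 in KO), and 5 of 8 were in Derlin-1 KO (median -0.04). All 4 blood genes were lower in Derlin-2 KO too (median -0.16; 86705 to 99451 in control and 80077 to 81189 in KO), as were 5 of 6 interneuron markers (108700 to 121360 in control and 97498 to 102860 in KO). In these interneuron sums Sst again weighed most, with 16.03 and 16.14 in Derlin-2 control and 15.76 and 15.75 in KO (difference -0.33, SE 0.11, limma adjusted p = 0.827). Choroid plexus markers were higher for 5 of 7 in each KO (medians 0.28 and 0.12), but their summed signals overlapped between KO and control in both lines. No gene of these lists passed an adjusted p under 0.05 in limma in either line.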

How the data were processed

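Each array held Cy3-labelled, amplified RNA of dissected dentate gyrus, and duplicates were grouped by sample title. The intensity of each spot, as deposited, had been background-subtracted and detrended by the authors with Agilent Feature Extraction (version 10.7.1.1, per the labels). The deposited log2 values, to which the authors had applied GeneSpring's quantile normalization and a baseline at each probe's median, served as an alternative. Their difference and fold columns were not used. Here a floor of 1, log2 and quantile normalization across the 8 arrays were applied to the intensities. Outlier spots were left out, spots of a probe averaged, and the 40001 probes kept that were well above background on both arrays of at least 1 group. Gene symbols are those of the deposited tables, joined by probe name. A model of 4 group means was fitted with limma (version 3.58.1, R 4.3.3; 4 residual and 2.07 prior degrees of freedom), two-sided, with Benjamini-Hochberg adjustment over all probes. The script was tested on simulated data. Shares of all genes are over 1 probe per gene. The mean signal column not being present, normexp used the median signal with an offset of 50.

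Values of single arrays are given for 16 genes named by rule and for each other member with an unadjusted p under 0.05. Genes of the further activity-regulated list and of the upstream list are named by the same p. Of the marker list genes, only Plk5, C1ql2 and Sst were named, although others had an unadjusted p under 0.05. The members and lists were chosen with earlier results of these data known. The number of arrays limits the precision. 1 gene of the upstream list is not reported here.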

Additional observations from a re-analysis of the deposited data

How the results depend on the processing

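No member passed an adjusted p under 0.05 in limma under any alternative (2092 recomputed differences, lowest adjusted p 0.244). The median over the members kept its side of 0 and moved by less than its spread between duplicates (SD 0.046) under scaling to the 75th percentile, normexp, the deposited values, both filters, the 4 arrays of a line, the replicate block and both other choices of probe, the Derlin-1 median ranging from 0.16 to 0.21. Control and KO arrays with the same replicate number deviated partly together in the Derlin-1 line (correlation of deviations 0.31) but not in the Derlin-2 line (-0.06). Whether replicate numbers pair the arrays was therefore not settled. With the replicate block the medians were 0.20 and 0.05 and no member passed. Leaving out 1 array at a time gave medians of 0.13 to 0.25 (Derlin-1 line), -0.028 to 0.11 (Derlin-2 line), 0.0047 to 0.17 (difference of the lines, lowest without Derlin-2 control replicate 2) and 0.07 to 0.14 (mean of both). Among all probes, the number past the threshold, 18 in the Derlin-2 line, was 2 with normexp or the strict filter, 29 with no filter, 0 with the replicate block or the 4 arrays alone, and 4 to 54 without 1 array; 3 for the difference became 0 to 20 and 5 for the mean 0 to 25.

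Of differences larger than their SE, 11 turned their sign, mostly with other probes, and for these the cause was not tested. With the mean of all probes, Junb was -0.14 and Nr4a3 0.12 in the Derlin-1 line (0.30 for the Nr4a3 probe outside the last rows of the array), Fosl2 0.19 in the Derlin-2 line, the difference of the lines -0.040 for Fosl2 and -0.27 for Junb, and the mean effect 0.067 for Nr4a3. Leaving out 1 array at a time, the Derlin-1 difference ranged from -0.27 to 0.017 for Jun and from -0.015 to 0.54 for Nptx2 (both turned without Derlin-1 control replicate 1). The Derlin-2 difference ranged from -0.29 to 0.022 for Fosl2 (turned without Derlin-2 control replicate 2) and from -0.0064 to 0.35 for Gadd45b (turned without Derlin-2 KO replicate 2). At an unadjusted p under 0.05, the 4 members of the Derlin-1 line became 2 without Derlin-1 KO replicate 2 and 8 with the 4 arrays alone.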
